A study of Mus musculus with 3 samples.

Results

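The simple epithelial keratins described here are Krt7, Krt8, Krt18, Krt19 and Krt20, 5 genes taken by symbol from the 31053 genes of the count tables. Their RNA was measured in single EpCAM+ cells of 3 mouse pancreatic tumours. tdTomato+ cells, which express MYC, were sorted from Msi2-Myc; R26-LSL-tdTomato donor mice at 5 weeks after tamoxifen and grafted into the pancreas of NSG recipients, which lack a working adaptive immune system. The series title gives the donor genotype as Musashi2-CreER-MycT58A; R26-LSL-tdTomato, so recombination was driven by Musashi2-CreER, and all 3 tumours share these alleles. The title also names ASCP, PDAC and ACC tumours, but the labels do not tie a tumour to a subtype. The 3 tumours therefore form 1 group, no test was made between them, and the comparisons below are between kinds of cells inside the tumours. Each tumour is 1 library. The labels do not say whether the tumours came from separate donors, so the spread between them may be partly technical.

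Keratins are the intermediate filament proteins of epithelial cells. Every keratin filament is built from pairs of a type I and a type II chain: Krt8 and Krt7 are type II chains, and Krt18, Krt19 and Krt20 are type I chains. In the normal pancreas the pair of Krt8 and Krt18 is found in acinar and ductal cells, while Krt7 and Krt19 are markers of ducts, and Krt20 is best known from the lining of the gut and stomach and from urothelial umbrella cells. Krt5 and Krt14, by contrast, are the pair of basal squamous cells.

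On mm10 the type II genes Krt7 (chr15:101411043-101430313, plus strand) and Krt8 (chr15:101996698-102004482, minus strand) lie on chromosome 15. Krt18 (chr15:102028180-102032027, plus strand) sits 23697 bases from Krt8, apart from the other type I genes. Krt20 (chr11:99428403-99438150, minus strand) and Krt19 (chr11:100140810-100148665, minus strand) lie on chromosome 11. All 5 are annotated as protein coding. A processed pseudogene of Krt8, Krt8-ps, is annotated on chromosome 7 and is not among the genes counted, and the sources used here do not say how reads matching both were treated. The RefSeq promoter windows of GRCm38.p6 matched 4 of the 5 members, all but Krt19. They are shown because these genes were all higher in one kind of cell than in another, as given below. Each window runs from 250 bases before to 50 bases after the RefSeq start, 5′ to 3′ on the gene's strand, and capitals mark the motif matches. The windows are chr15:101412153-101412452 (plus strand) for Krt7, chr15:102004293-102004592 (minus strand) for Krt8, chr15:102027966-102028265 (plus strand) for Krt18 and chr11:99438104-99438403 (minus strand) for Krt20.
Krt7: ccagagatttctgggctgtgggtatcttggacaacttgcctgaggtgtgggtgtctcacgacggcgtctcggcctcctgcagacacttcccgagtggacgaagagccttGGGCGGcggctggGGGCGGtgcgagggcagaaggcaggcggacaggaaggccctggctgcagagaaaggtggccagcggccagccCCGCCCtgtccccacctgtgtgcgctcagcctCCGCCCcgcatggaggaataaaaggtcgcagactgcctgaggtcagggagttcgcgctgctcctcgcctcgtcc
Krt8: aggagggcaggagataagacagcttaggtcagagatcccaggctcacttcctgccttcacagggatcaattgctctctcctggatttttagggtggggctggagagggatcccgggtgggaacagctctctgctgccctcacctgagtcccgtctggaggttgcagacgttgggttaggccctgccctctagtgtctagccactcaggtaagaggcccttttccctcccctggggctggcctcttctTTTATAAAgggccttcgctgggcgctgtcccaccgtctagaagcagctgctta
Krt18: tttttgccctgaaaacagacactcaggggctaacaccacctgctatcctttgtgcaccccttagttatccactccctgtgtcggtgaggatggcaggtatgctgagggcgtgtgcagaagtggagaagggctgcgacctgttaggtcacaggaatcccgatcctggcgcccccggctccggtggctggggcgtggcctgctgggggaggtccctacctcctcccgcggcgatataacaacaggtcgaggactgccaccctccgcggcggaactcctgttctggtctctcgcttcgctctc
Krt20: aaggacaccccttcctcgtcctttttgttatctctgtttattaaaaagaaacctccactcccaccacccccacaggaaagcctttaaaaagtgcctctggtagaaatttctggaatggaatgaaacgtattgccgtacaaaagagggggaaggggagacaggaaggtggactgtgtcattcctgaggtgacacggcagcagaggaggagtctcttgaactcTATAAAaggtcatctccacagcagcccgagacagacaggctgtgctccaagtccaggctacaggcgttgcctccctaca

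The motifs searched on both strands were the TATA box TATAAA, the GC box GGGCGG and the AP-1 motif TGANTCA, and no match of one overlapped a match of another. The Krt20 window held 1 TATAAA, 29 bases before the start. The Krt8 window held overlapping matches on the 2 strands at the start itself, read in the capitals as TTTATAAA. TATAAA was found in 13.6% of the 32851 mouse promoter windows of the same length. The Krt7 window held 4 GC boxes, 2 on each strand, and GGGCGG was found in 35.7% of all windows. The Krt18 window held none of the 3 motifs, and TGANTCA, found in 7.81% of all windows, was in none of the 4.

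Cells were barcodes with 1000 or more UMIs (unique molecular identifiers, 1 per captured RNA molecule), and 4488 were kept: 1431, 253 and 2804 in tumours 1, 2 and 3, from libraries of 11502184, 9737397 and 16521484 UMIs. Cells were sorted into gates by marker UMIs: squamous (Krt5 and Krt14), msln (Msln, Tm4sf1 and F3), ductal (Tff1 and Lgals4) and acinar (Ctrb1 and Clps). A cell passed a gate with 3 or more UMIs and 0.2% or more of its UMIs from the gate genes. None of the 5 members is a gate gene. The ductal gate held 463, 102 and 231 cells in tumours 1, 2 and 3, and the acinar gate held 459, 50 and 1849. The msln gate held 21, 2 and 21 cells and the squamous gate 1, 2 and 55. Another 656 cells passed no gate and 535 passed both the acinar and the ductal gate. The 9 acinar markers outside the gate summed to between 4874 and 9116 CPM (UMIs per 1000000 UMIs) in acinar-gated cells and 263 to 435 CPM in ductal-gated cells. The 8 ductal markers summed to 4054 to 6934 CPM in ductal-gated cells and 941 to 1666 CPM in acinar-gated cells. Fibroblast, endothelial and myeloid lists each stayed at or under 13.2 CPM over all cells of a tumour.

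Several facts on the libraries touch every value. Libraries share barcodes: 370 barcodes passed the other limits in more than 1 library, so a barcode was kept only where 60% or more of its UMIs lay, which removed 50.5% of the passing barcodes of tumour 2 and left no barcode in more than 1 library. Many acinar-gated cells were rich in Gm42418 and AY036118, transcripts at the ribosomal RNA locus. Cells with 10% or more of their UMIs from these numbered 164 of 459, 5 of 50 and 1267 of 1849 in the acinar gate of tumours 1, 2 and 3, against 46, 14 and 1 in the ductal gate and 483 of the 535 cells in both gates. The main results on the acinar gate are given with and without them. Barcodes of 10 to 100 UMIs, taken as free RNA, held 126.8, 104.3 and 130.9 CPM of Krt7, 942, 799 and 712 CPM of Krt8, 472, 383 and 431 CPM of Krt18, 1059, 926 and 912 CPM of Krt19, and 9.14, 7.14 and 8.09 CPM of Krt20.

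The question the design text raises is whether one pool of early cells gives rise to several kinds of tumour cells, and the gates are the kinds that can be compared here. In ductal-gated cells all 5 keratins were higher than in acinar-gated cells of the same tumours. By fold, Krt20 differed most and Krt18 least. Together the 5 made up 8610, 8203 and 8900 CPM in ductal-gated cells of tumours 1, 2 and 3, against 2508, 2664 and 2622 CPM in acinar-gated cells. The 3 ductal values lay far above the 3 acinar values, and the tumours differed little within a gate.

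Of the type II chains, Krt8, the general partner of simple epithelia, was at 3181, 2922 and 3060 CPM in ductal-gated cells, against 905, 933 and 889.8 CPM in acinar-gated cells. The means were 3054 ± 130 and 909 ± 21.7 CPM (SD, n = 3 each). Krt8 was 1.76 ± 0.19 higher on the log2 scale (SE, edgeR quasi-likelihood test with tumour as a block, Benjamini-Hochberg adjusted p = 6.8e-18). Krt7, the ductal type II chain, was at 450.0, 499 and 674 CPM in ductal-gated cells, against 134.4, 269 and 177.2 CPM in acinar-gated cells. The groups did not overlap, but tumour 2 was the highest of the acinar values and rested on 32 UMIs. Its log2 difference was 1.65 ± 0.15 (edgeR adjusted p = 1.1e-25).

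Of the type I chains, Krt19, a marker of ducts, was the most abundant member, at 3613, 3389 and 3867 CPM in ductal-gated cells against 931, 949.5 and 987 CPM in acinar-gated cells. Its log2 difference was 1.93 ± 0.20 (edgeR adjusted p = 2.5e-20). Krt18, the usual partner of Krt8, was at 1312, 1311 and 1204 CPM in ductal-gated cells, against 531, 513 and 562 CPM in acinar-gated cells. Neither group overlapped the other, and the log2 difference of 1.23 ± 0.17 (edgeR adjusted p = 1.1e-11) was the lowest of the 5. Krt20 was rare, with 53, 83.1 and 95.8 CPM in ductal-gated cells against 6.11, 0 and 5.64 CPM in acinar-gated cells. That acinar level rests on 6, 0 and 25 UMIs and lay below the level in free RNA in each tumour. Its log2 difference was 3.79 ± 0.31 (edgeR adjusted p = 6.9e-33). The 5 calls stand beside a background in which 35.6% of the 7392 genes tested passed in either direction and 19.1% passed as higher in ductal-gated cells. For Krt7 and Krt18, the share of all genes whose groups also did not overlap was not counted.

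**Figure D1:**
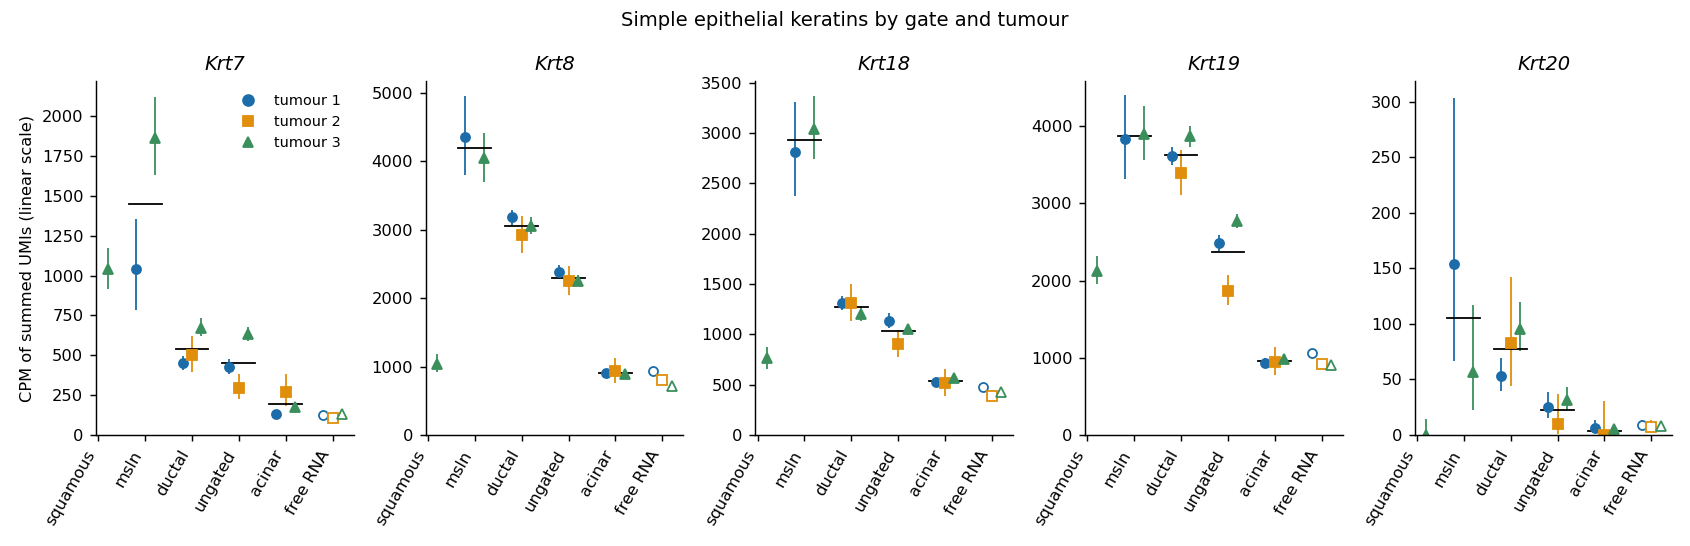
CPM of summed UMIs (vertical axis, linear, a scale per gene) of each keratin in squamous, msln, ductal, ungated and acinar cells and in free RNA (open symbols), for sums of 20 or more cells. Symbols are tumours, bars are exact Poisson 95% intervals of counting error and black lines are means over tumours. Krt8 lies between 2922 and 3181 CPM in the ductal gate and between 889.8 and 933 CPM in the acinar gate.

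The differences were larger without the cells rich in ribosomal RNA locus transcripts. Acinar-gated Krt19 was then 839, 795 and 842 CPM, Krt8 881, 882 and 896 CPM, and Krt20 2.78, 0 and 2.90 CPM. The log2 differences became 4.82 for Krt20, 2.27 for Krt19, 1.96 for Krt7, 1.94 for Krt8 and 1.42 for Krt18, and all 5 passed. Since 45 such cells were left in the acinar gate of tumour 2, this fit took sums of 20 or more cells, which also brought in the msln sums. With all cells that minimum alone gave 3.68 for Krt20, 1.90 for Krt19, 1.60 for Krt7, 1.73 for Krt8 and 1.21 for Krt18. In the fit without the ribosomal RNA-rich cells 36% of 6553 genes passed, 19.1% as higher.

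The Krt8, Krt18 and Krt19 levels of acinar-gated cells lay near those of free RNA. Without the ribosomal RNA-rich cells, acinar-gated Krt8 was 0.935, 1.10 and 1.26 times the free RNA level in tumours 1, 2 and 3, Krt18 was 1.10, 1.25 and 1.29 times and Krt19 was 0.792, 0.859 and 0.923 times. Krt7 was at 0.922, 2.67 and 1.17 times. Acinar-gated Krt20 was at 0.305, 0 and 0.358 times the free RNA level, below it in each tumour, and no expression is read from it. In ductal-gated cells without the ribosomal RNA-rich ones Krt8 was at 3.54, 4.13 and 4.30 times its free RNA level. For Malat1, a nuclear RNA abundant in free RNA, the same acinar-gated cells were at 0.107, 0.0904 and 0.147 times its free RNA level. How much of the acinar-gated keratin UMIs is free RNA was not tested.

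Shares of cells with a UMI, after each cell was thinned to 1000 UMIs, were in the same order. Krt8 was found in 89.4%, 95.1% and 91.3% of ductal-gated cells of tumours 1, 2 and 3, against 53.8%, 54% and 56.6% of acinar-gated cells. Before thinning, Krt8 was found in 95%, 98% and 98.3% of ductal-gated cells. The gates had like depths, with medians of 1652, 1287 and 1936 UMIs per ductal-gated cell and 1634, 1320.5 and 1588 per acinar-gated cell. At least 1 of the 5 keratins was seen in 98.3%, 100% and 99.1% of thinned ductal-gated cells and in 86.1%, 86% and 89.8% of thinned acinar-gated cells. Krt20 was seen in 5.62%, 6.86% and 7.79% of thinned ductal-gated cells, and in 0.871%, 0% and 0.595% of acinar-gated cells, where 0 of 50 cells allows a share of cells with a UMI of up to 6% by the floor of 3 counts and 7.11% by the exact interval. Without the ribosomal RNA-rich cells Krt8 was found in 49.8%, 53.3% and 54.6% of thinned acinar-gated cells. No cell type that lacks simple keratins was in the sort in number, so the background of these shares has no direct gauge. Genes of the other gate give a range. Cpa1, an acinar protease, was seen in 5.4%, 5.88% and 7.36% of unthinned ductal-gated cells and Ctrb1, another, in 23.1%, 20.6% and 45%. Tff1 was seen in 37.9%, 18% and 51.3% of unthinned acinar-gated cells. Ctrb1 and Tff1 are gate genes, so cells high in them had been moved out of these gates by the rule. In free RNA, Ctrb1 was at 2618, 2023 and 3638 CPM and Cpa1 at 298, 238 and 410.4 CPM, either side of Krt8. The acinar-gated shares of the keratins are therefore given as values, and no expression in acinar-gated cells is read from them.

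The make-up of the keratin transcripts differed less than their amount. The 3′ UMI counts are per molecule and were not divided by gene length. The ratio of type II to type I UMIs was 0.722 ± 0.00709 in ductal-gated cells and 0.739 ± 0.0727 in acinar-gated cells (SD, n = 3 each). For this ratio an exact two-sided permutation test gave p = 1 (adjusted p = 1 over 4 ratios). Within the type I chains, Krt19 made up 72.6%, 70.9% and 74.8% in ductal-gated cells against 63.4%, 64.9% and 63.5% in acinar-gated cells. Krt18 per Krt8 was 0.412, 0.449 and 0.393 in ductal-gated cells, against 0.587, 0.55 and 0.632 in acinar-gated cells. Both measures separated the gates in all 3 tumours. Both gave the exact permutation p = 0.1 that is the smallest 3 against 3 allows (adjusted p = 0.2). The permutations of all these ratios moved values freely between the gates and did not use the pairing by tumour. Krt7 as a share of type II was 15 ± 2.85% in ductal-gated cells and 17.3 ± 4.76% in acinar-gated cells, with overlap (exact permutation p = 0.6, adjusted p = 0.8). Without the ribosomal RNA-rich cells the type II to type I ratio was 0.730 ± 0.00598 in ductal-gated and 0.798 ± 0.0973 in acinar-gated cells (exact permutation p = 0.2, adjusted p = 0.267). Krt18 per Krt8 was then 0.416 ± 0.0246 and 0.584 ± 0.0383, again with the exact permutation p = 0.1. Free RNA held 942, 799 and 712 CPM of Krt8 and 472, 383 and 431 CPM of Krt18, near the acinar-gated levels. The part of free RNA in the acinar-gated ratios was not tested.

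**Figure D2:**
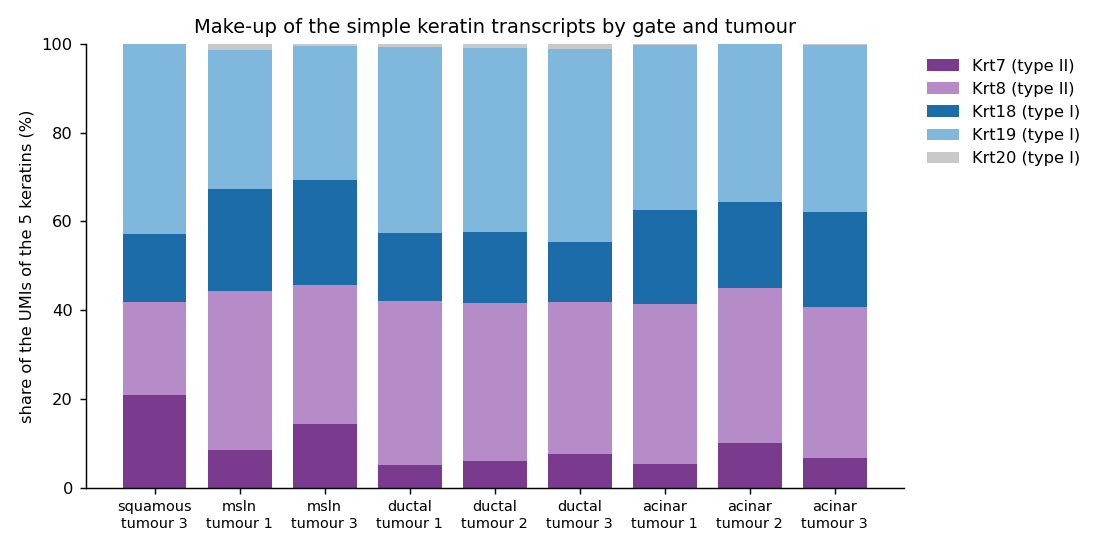
Share of the UMIs of the 5 keratins (vertical axis, percent) held by each gene, 1 bar per tumour with 20 or more cells in the squamous, msln, ductal and acinar gates. Cells in no gate or in several are not drawn. The type II part, Krt7 and Krt8, lies between 40.7% and 45.8% in the 9 bars, while Krt18 is between 13.5% and 16% in the ductal gate, 19.2% and 21.4% in the acinar gate and 23.1% and 23.6% in the msln gate.

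Keratin levels were also set along the gate genes, in all cells not rich in ribosomal RNA locus transcripts, whatever their gate. The bins use the gate genes and include the gated cells, so they partly restate the comparison of gates and are no separate support. With under 0.1% of UMIs from Tff1 and Lgals4, Krt8 was at 1605, 1758 and 1302 CPM and Krt19 at 1614, 1504 and 1451 CPM in tumours 1, 2 and 3. With 2% or more from these genes, bins that held 42 cells of tumour 1 and 37 of tumour 3, Krt8 was at 4222 and 4781 CPM and Krt19 at 4479 and 6164 CPM. Krt20 was at 12.1, 3.85 and 12.5 CPM in the lowest bin and at 140.3 and 272 CPM in the highest. Krt7 did not follow the same course: in tumour 3 it was 808 CPM between 0.2% and 0.5% and 605 CPM at 2% and above. These are descriptions over cells of 1 library each, without a test.

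**Figure D3:**
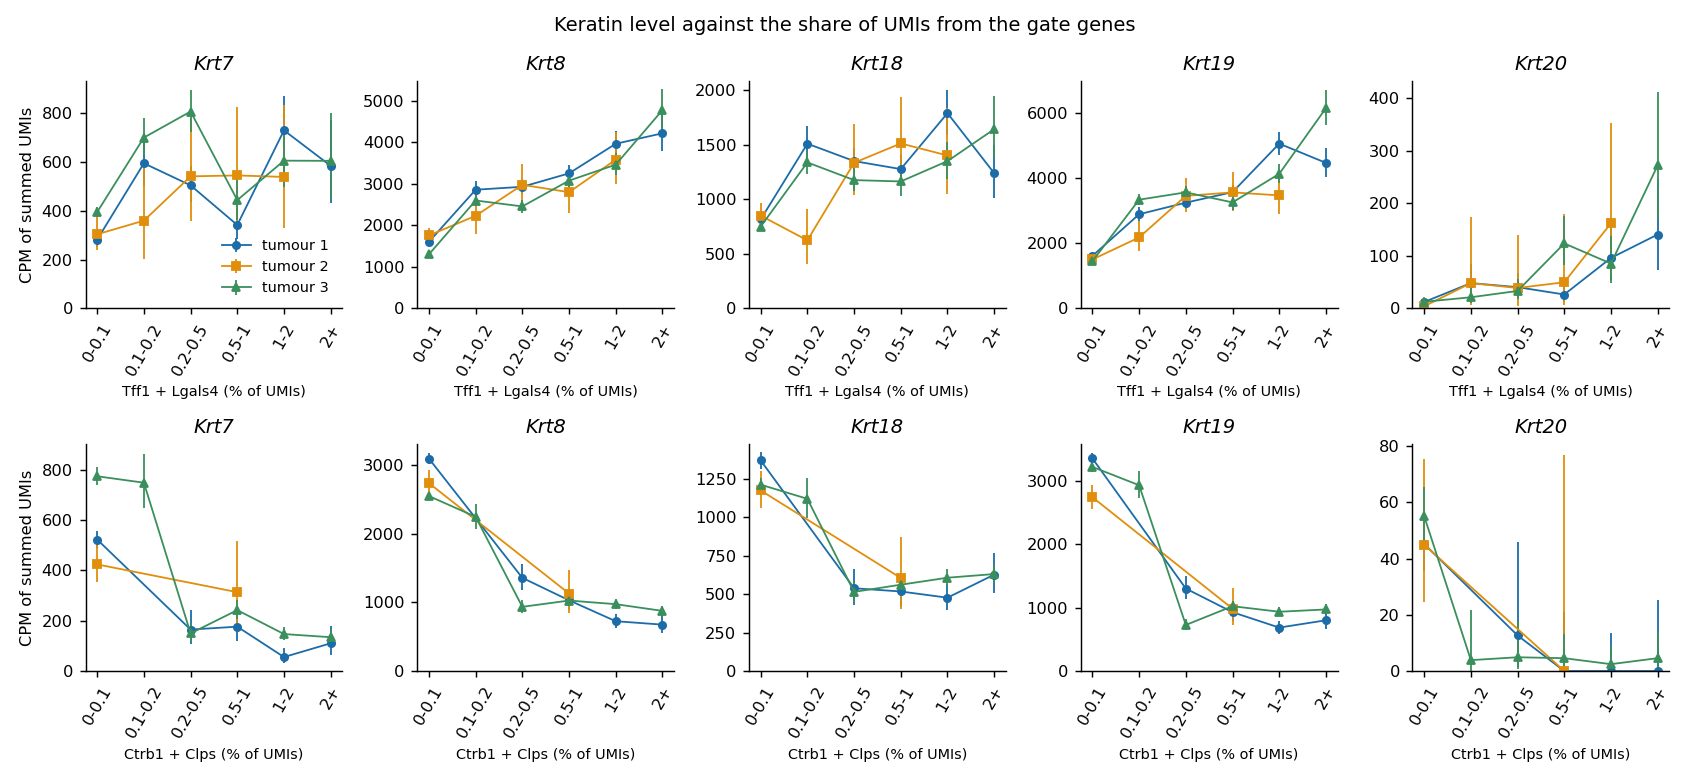
CPM of summed UMIs (vertical axis) of each keratin against the percent of a cell's UMIs from Tff1 and Lgals4 (upper row) or from Ctrb1 and Clps (lower row), in bins of 20 or more cells. Symbols are tumours, bars are Poisson 95% intervals, and cells rich in ribosomal RNA locus transcripts are left out. Cells of every gate and of none are included. In the upper row Krt8 and Krt20 of tumours 1 and 3 are highest in the bin at 2% and above, where tumour 2 has no bin, while Krt19 of tumour 1 is highest between 1% and 2%, at 5071 CPM. In the lower row Krt8 is at 3091, 2734 and 2546 CPM under 0.1%, against 675 and 875 CPM at 2% and above in tumours 1 and 3.

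The msln gate, named for mesothelin, held 21 cells in each of tumours 1 and 3 and carried the highest summed keratin level, at 12188 and 12908 CPM. Of 6 mesothelial markers only Msln itself had UMIs in these cells, the other 5 being at 0, and the 4 epithelial markers summed to 2253 and 2217 CPM. The 7 myeloid markers summed to 57.8 and 48.6 CPM there, from 1 gene, and the 6 tuft cell markers to 115.5 and 40.5 CPM. Against ductal-gated cells, Krt7 and Krt18 were higher and Krt8, Krt19 and Krt20 did not pass. Krt7 was at 1040 and 1861 CPM in msln-gated cells of tumours 1 and 3, against 450.0, 499 and 674 CPM in ductal-gated cells. Its log2 difference was 1.37 ± 0.21 (edgeR adjusted p = 3.6e-07), with the higher value in tumour 3. Krt18 was at 2811 and 3043 CPM in msln-gated cells, against 1312, 1311 and 1204 CPM in ductal-gated cells. Its log2 difference was 1.09 ± 0.22 (edgeR adjusted p = 0.00022). Without tumour 1 or without tumour 3 the Krt18 difference was 1.18 and 0.99 and no longer passed (edgeR adjusted p = 0.094 and 0.061). Each of those fits holds 1 msln sum, whose spread is assumed to be that of the other gates.

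Krt8 was at 4352 and 4046 CPM in msln-gated cells, with a log2 difference from ductal-gated cells of 0.33 (95% interval -0.11 to 0.78, edgeR adjusted p = 0.47). Krt19 was at 3832 and 3901 CPM, with a difference of -0.05 (95% interval -0.50 to 0.40, edgeR adjusted p = 0.95). Krt20 was at 154 and 56.6 CPM from 8 and 7 UMIs, with a difference of 0.11 (95% interval -0.82 to 1.05, edgeR adjusted p = 0.94). The Krt19 and Krt20 differences changed sign under other settings. In tumour 3, 8 of the 21 msln-gated cells had 5000 or more UMIs, and the 13 shallower ones held 23507 of 123566 UMIs. Among cells under 5000 UMIs in tumours 1 and 3, Krt8 was at 4990 and 5445 CPM in the msln gate. It was at 3211 and 3382 CPM in the ductal gate. Krt19 in such cells was at 4939 and 6721 CPM in the msln gate and 3854 and 4799 CPM in the ductal gate. These levels by depth were not tested. In this comparison 5.69% of 6662 genes passed in either direction and 3.57% as higher in msln-gated cells, against 2 of the 5 members. Krt18 per Krt8 was 0.646 and 0.752 in msln-gated cells, above the 0.393 to 0.449 of ductal-gated cells.

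Against acinar-gated cells all 5 were higher in msln-gated cells, by 3.79 ± 0.63 for Krt20, 2.97 ± 0.22 for Krt7, 2.30 ± 0.22 for Krt18, 2.06 ± 0.23 for Krt8 and 1.85 ± 0.23 for Krt19 on the log2 scale (SE, edgeR adjusted p from 6e-20 to 2.1e-06). Of 6662 genes, 17.5% passed and 9.95% passed as higher. Without the ribosomal RNA-rich cells the differences were 4.86 for Krt20, 3.26 for Krt7, 2.43 for Krt18, 2.19 for Krt8 and 2.15 for Krt19, and all passed, beside 19.3% of 6553 genes in either direction and 9.93% as higher. The 3 comparisons share the same ductal, msln and acinar sums, so they are not independent of one another. Malat1, a nuclear RNA, moved with the gate: it was at 29537 and 42204 CPM in msln-gated cells, against 3479, 5729 and 8379 CPM in ductal-gated cells and 22522, 31149 and 27423 CPM in free RNA. The part of these RNAs in the keratin differences was not tested.

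**Figure D4:**
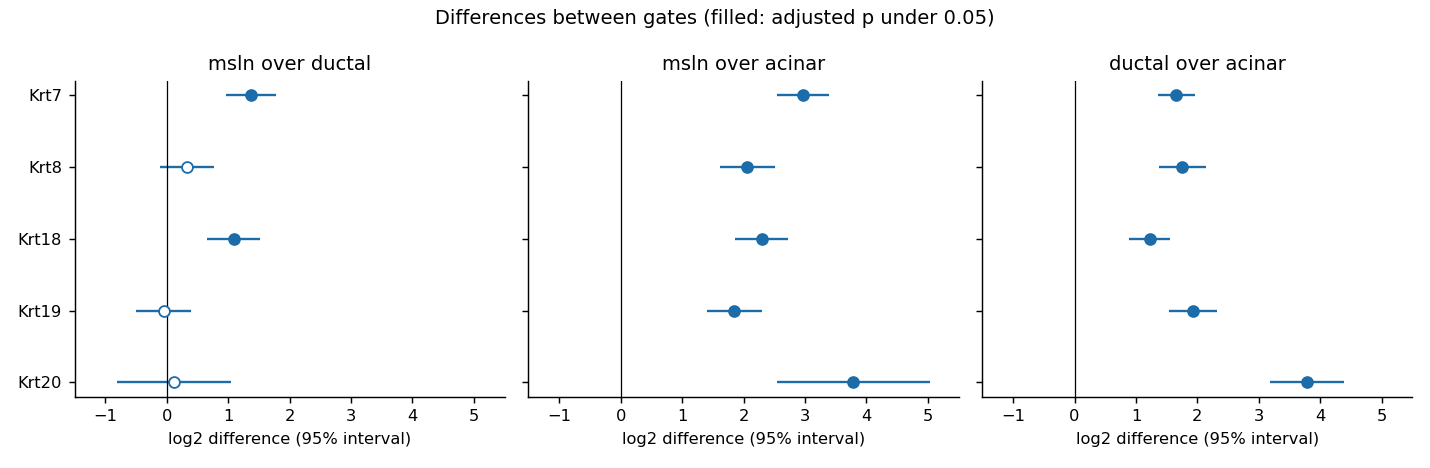
Log2 difference (horizontal axis) with 95% interval for each keratin between msln and ductal, msln and acinar, and ductal and acinar cells, from edgeR fits with tumour as a block. Filled points passed at an adjusted p of 0.05. All points for the comparisons with acinar cells are filled, and in msln over ductal cells only Krt7 and Krt18 are.

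In tumour 3 the squamous gate held 55 cells, the only tumour with enough to describe, so no test was possible. The 5 members were 29% of all keratin UMIs there, against 98.5% in ductal-gated and 92.9% in acinar-gated cells of that tumour. Krt5 and Krt14, which define the squamous gate, alone made up 43.3% of its keratin UMIs. The low share of the members is therefore set in part by the gate rule. Krt19 was still at 2130 CPM (95% Poisson interval 1953 to 2318), Krt8 at 1043 CPM (921 to 1177), Krt7 at 1039 CPM (917 to 1173) and Krt18 at 761 CPM (658 to 877). Krt20 had 0 of 252154 UMIs, which allows up to 14.6 CPM by the exact Poisson interval. That limit is below the 95.8 CPM of ductal-gated cells of the same tumour but not below the 5.64 CPM of acinar-gated cells. Krt7 made up 49.9% of the simple type II UMIs, against 18.1% in ductal-gated and 16.6% in acinar-gated cells. The 17 cells of 5000 or more UMIs had 793 CPM of Krt8 and 447 CPM of Krt18. The 38 shallower ones had 1627 and 1495 CPM, so the levels differed with depth within the gate, which was not tested. Krt18 and Krt19 were also lower in the deeper cells of the ductal gate, as given below.

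Over all cells the 5 members held 89.9% of all keratin UMIs. The count table lists 48 other keratin genes, 23 of them with 0 UMIs and 14 at 20 CPM or more in some gate. Most of the 14 are keratins of stratified epithelia. Among cells in a single gate, summed over tumours, these were highest in the squamous gate: Krt5 at 4064 CPM and Krt14 at 3365 CPM, which define the gate, Krt15 at 2604 CPM, Krt17 at 1036 CPM, Krt6a at 527 CPM, Krt16 at 171 CPM, Krt6b at 96.6 CPM, Krt4 at 92.9 CPM and Krt13 at 66.9 CPM. Krt10, Krt23 and Krt80 were highest in the msln gate, at 28.1, 45 and 22.5 CPM from 5, 8 and 4 UMIs. Krt79 and Krt87 were highest in the ductal gate, at 40.4 and 23.2 CPM. These 2 and Krt23 were the only other keratins tested in ductal over acinar cells, and all 3 were higher. Over all 7392 genes tested 35.6% passed, 19.1% as higher in ductal-gated cells. The log2 differences were 3.20 ± 0.48 for Krt23, 2.36 ± 0.34 for Krt79 and 0.92 ± 0.37 for Krt87 (SE, edgeR adjusted p = 6.5e-10, 1.3e-10 and 0.038).

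Cells with cycling transcripts were called by the same rule on 30 cell cycle genes. Against the non-cycling cells of their gate, Krt18 and Krt19 were lower in the ductal gate, and Krt7, Krt8, Krt18 and Krt19 in the acinar gate. In the ductal gate, Krt19 was at 2925, 2676 and 2773 CPM in cycling cells of tumours 1, 2 and 3, against 3997, 3662 and 4189 CPM in non-cycling cells. It fell by 0.72 ± 0.15 on the log2 scale (edgeR adjusted p = 0.00013). Krt18 was at 1112, 1199 and 1035 CPM in cycling cells, against 1424, 1353 and 1253 CPM in non-cycling cells, and fell by 0.50 ± 0.15 (edgeR adjusted p = 0.027). The groups of both genes did not overlap, but the share of all genes that separate in this way was not counted. Without tumour 1 Krt18 was at -0.46 and no longer passed (edgeR adjusted p = 0.44). Krt8, Krt7 and Krt20 differed by -0.41, -0.25 and -0.53 and did not pass (edgeR adjusted p = 0.086, 0.51 and 0.49). Among 7049 genes 4.11% passed and 2.16% passed as lower. The cycling cells were deeper in each tumour, with medians of 1866, 1343 and 2168 UMIs against 1603, 1270 and 1914. Ductal-gated cells of 5000 or more UMIs had 2579 and 2907 CPM of Krt19 in tumours 1 and 3. Shallower ones had 3854 and 4799 CPM. Krt18 was at 900 and 874 CPM in the deeper cells, against 1408 and 1524 CPM in the shallower ones. The part of depth in the cycling differences was not tested.

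In the acinar gate only tumours 1 and 3 had both states in number. Krt19 was at 822 and 773 CPM in cycling cells, against 1121 and 1266 CPM in non-cycling cells, a difference of -0.84 ± 0.17 (edgeR adjusted p = 0.0002). Krt7, Krt8 and Krt18 also passed, at -0.71, -0.60 and -0.69 (edgeR adjusted p = 0.0065, 0.021 and 0.0026), and Krt20 did not, at -1.14 (edgeR adjusted p = 0.41). Here 2.88% of 7049 genes passed and 2.45% as lower. Cycling cells were deeper here too, with medians of 1784 and 1678 UMIs against 1563 and 1530. Acinar-gated cells of 5000 or more UMIs had 818 and 597 CPM of Krt19, against 957 and 1149 CPM in shallower ones. Free RNA held 1059 and 912 CPM of Krt19, between the cycling and non-cycling levels of each tumour. The parts of depth and free RNA in the acinar differences were not tested. Cells rich in ribosomal RNA locus transcripts moved with the state, being 28.1% and 60.1% of cycling cells against 46.4% and 76.4% of non-cycling cells. Without them Krt19 was at -0.74 in the ductal gate and -1.07 in the acinar gate (edgeR adjusted p = 4.6e-06 and 2.7e-08). In those fits 5.59% and 4.07% of 6566 genes passed, 3.53% and 2.92% as lower. Krt7, Krt8 and Krt18 were then at -0.84, -0.73 and -0.78 in the acinar gate, and Krt8 and Krt18 at -0.44 and -0.54 in the ductal gate, and all 5 passed (edgeR adjusted p from 0.00033 to 0.020). Without the tumour block, however, none of these differences passed: Krt19 had edgeR adjusted p = 0.056 in the ductal and 0.13 in the acinar gate. Without tumour 3 none of the 4 acinar differences passed, and without tumour 1 Krt7, Krt8 and Krt18 did not. In these fits only 1 tumour had both acinar states, and the spread comes from the other sums.

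**Figure D5:**
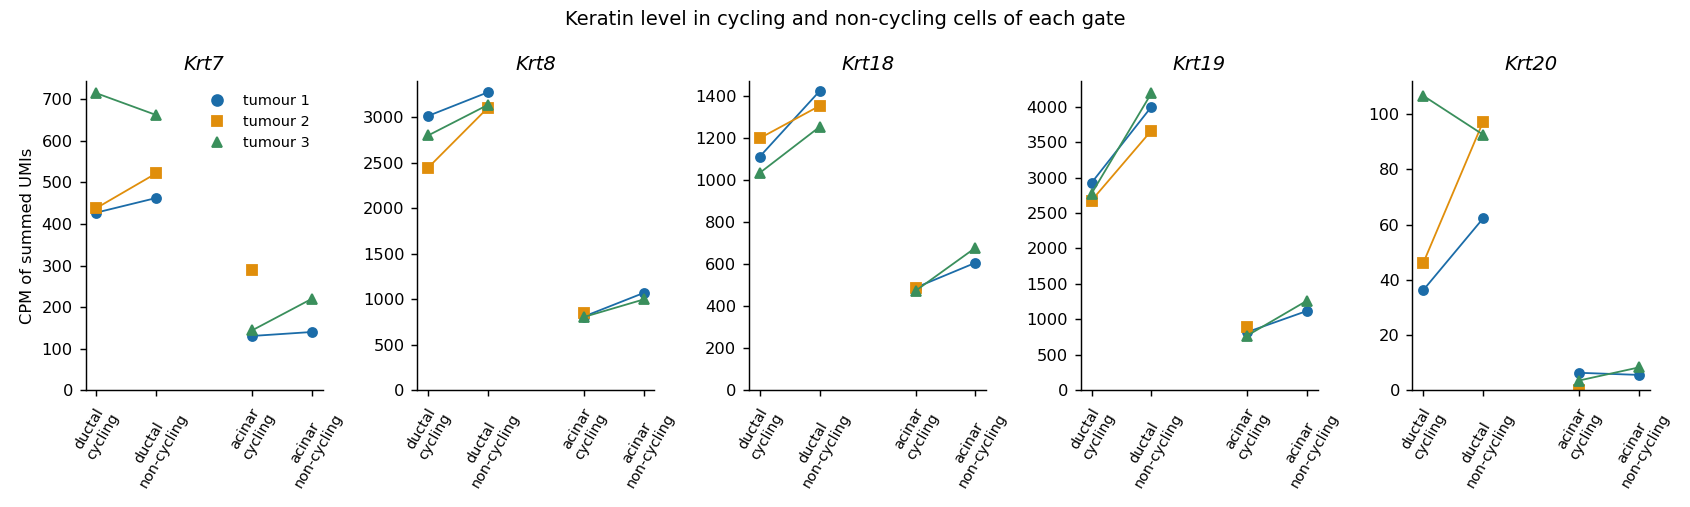
CPM of summed UMIs (vertical axis) of each keratin in cycling and non-cycling cells of the ductal and acinar gates, with lines joining the states of 1 tumour. Krt19 lies between 2676 and 2925 CPM in cycling and between 3662 and 4189 CPM in non-cycling ductal-gated cells. Tumour 2 has too few non-cycling acinar-gated cells to show.

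The cycling difference itself was not shown to differ between the gates. The interaction was 0.13 (95% interval -0.32 to 0.57) for Krt19, 0.19 for Krt8, 0.19 for Krt18, 0.46 for Krt7 and 0.61 for Krt20, and no member passed (edgeR adjusted p from 0.73 to 0.98), while 0.61% of 7049 genes did.

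Genes of the wider keratin system were taken from fixed lists. Of 18 genes that link keratins to desmosomes or bind them, 15 were tested and 12 were higher in ductal than acinar cells, with none lower, and their median difference was 0.96 against 0.00 over all genes. Over all genes tested 35.6% passed, 19.1% as higher and 16.5% as lower. Dsc2, a desmosomal cadherin, was at 40.0, 25.6 and 90.9 CPM in ductal-gated cells against 9.16, 0 and 14.7 CPM in acinar-gated cells, a log2 difference of 2.42 ± 0.28 (edgeR adjusted p = 2.3e-16). Dsp, desmoplakin, which ties keratins to desmosomes, was at 164, 243 and 177 CPM in ductal-gated cells against 62.1, 92.4 and 60.5 CPM in acinar-gated cells. It differed by 1.42 ± 0.18 (edgeR adjusted p = 3.3e-14). Ppl, periplakin, and Fam83h, which recruits a kinase to keratin filaments, differed by 1.83 and 1.63 (edgeR adjusted p = 6.8e-08 and 3.2e-05). Eppk1, Dst and Pkp2 did not pass. In msln over ductal cells 1 of the 15 passed, a share near the 5.69% of all genes. It was Dst, which anchors keratins at hemidesmosomes, at 2.43 ± 0.52 (edgeR adjusted p = 0.00061).

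Among 12 other intermediate filament genes only 4 were tested, with 1 higher and 2 lower in ductal than acinar cells, where 19.1% of all genes passed as higher and 16.5% as lower. Nes, nestin, was at 6, 0 and 6.06 CPM in ductal-gated cells against 79.4, 143 and 82.9 CPM in acinar-gated cells, and fell by 3.97 ± 0.34 (edgeR adjusted p = 3.2e-30). Lmnb1, a nuclear lamin, fell by 1.00 ± 0.18 (edgeR adjusted p = 1.3e-07). Lmna, another lamin, rose by 0.45 ± 0.16 (edgeR adjusted p = 0.017), a call lost under 6 other settings and without tumour 1 or tumour 3. Lmnb2 was at -0.64 and did not pass. In cycling over non-cycling cells Lmnb1 went the other way from the keratins, higher by 1.48 ± 0.25 in the ductal gate (edgeR adjusted p = 2.2e-06) and by 0.79 ± 0.19 in the acinar gate (edgeR adjusted p = 0.0026).

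Of 19 transcription factors known to act in simple or stratified epithelia, 9 were tested, 5 were higher in ductal than acinar cells and 1, Jun, was lower, beside the 19.1% and 16.5% of all genes. Klf5 was at 281, 390.0 and 330 CPM in ductal-gated cells against 104.9, 109.2 and 83.8 CPM in acinar-gated cells, a log2 difference of 1.69 ± 0.16 (edgeR adjusted p = 1.2e-24). Elf3, an epithelial ETS factor, was at 243, 300.5 and 333 CPM against 70.3, 58.8 and 107 CPM, a difference of 1.69 ± 0.16 (edgeR adjusted p = 3.9e-23). Hnf4a and Ehf differed by 1.60 and 1.21 (edgeR adjusted p = 1.4e-06 and 2.2e-08). The 9 had a median difference of 1.18 against 0.00 over all genes. The AP-1 gene Jun fell by 0.72 ± 0.16 (edgeR adjusted p = 5.2e-05). It was at 258, 307 and 524 CPM in ductal-gated cells against 525, 286 and 820 CPM in acinar-gated cells. In CPM, tumour 2 therefore went the other way.

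The members were also set against each other and against 2735 genes over 15 sums of 1 tumour and gate, as Pearson correlations of log2(CPM + 1). The sums share libraries and differ in cell number, and no test is given. The members were most alike for Krt8 with Krt18 (0.93) and Krt8 with Krt19 (0.93), and least for Krt7 with Krt20 (0.42). The nearest genes were Myof (0.95), Cd44 (0.95) and Arpc5 (0.94) for Krt7, Duox2 (0.95), Ctse (0.95) and Akr1b8 (0.95) for Krt8, and Cxcl16 (0.94), Plat (0.93) and Lmo7 (0.93) for Krt18. Those nearest Krt19 were Sri (0.97), S100a6 (0.96) and Ccnd2 (0.96), and those nearest Krt20 were Elf3 (0.89), Prr13 (0.87) and Fuca1 (0.87). No gene was among the nearest 3 of more than 1 member.

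Across single cells of 1 gate and tumour, thinned to 1000 UMIs, the counts of the members were mostly weakly related. Cells rich in ribosomal RNA locus transcripts were left out. In ductal-gated cells the mean Spearman rho over tumours was 0.289 for Krt8 with Krt19 (0.106 to 0.472), 0.196 for Krt8 with Krt18 and 0.0788 or less in size for Krt20 with Krt8 and Krt18. In acinar-gated cells Krt8 with Krt19 gave 0.186 and Krt8 with Krt18 0.177. In 54 squamous-gated cells of tumour 3 Krt8 with Krt18 gave 0.615. In ungated cells the means were 0.361 for Krt8 with Krt19 and 0.343 for Krt8 with Krt18. Cells of a gate share a library, depth and free RNA. Thinned ductal-gated cells held means of 1.53, 1.45 and 1.38 Krt18 UMIs in tumours 1, 2 and 3. Counts this low limit how high rho can be.

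Cells in no gate or in 2 gates lay between for Krt8 and Krt19. The 656 ungated cells held 2378, 2247 and 2250 CPM of Krt8 and 2486, 1868 and 2771 CPM of Krt19 in tumours 1, 2 and 3, below the ductal-gated and above the acinar-gated cells of the same tumours. Cells in both the acinar and ductal gates held 1274, 1398 and 1220 CPM of Krt8 and 1406, 1843 and 1684 CPM of Krt19, and most of these cells were rich in ribosomal RNA locus transcripts, as given above. Krt20 was at 25.4, 10.2 and 31.8 CPM in ungated cells, against 53, 83.1 and 95.8 CPM in ductal-gated cells.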

How the data were processed

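RNA of EpCAM+ cells from 3 mouse tumours was measured with 10x Genomics 3′ libraries. Each deposited value is a whole-number count of UMIs for 1 gene in 1 barcode, made with Cell Ranger 3.0.2 per the file headers, on mm10 and with Seurat 3.1 also named per the submitters' processing notes; barcodes were not filtered. The labels name a Version 1 and a Version 3 kit. The sources used here do not give the annotation. Coordinates were taken from GENCODE for mm10.

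Cells had 1000 or more UMIs, 500 or more genes, at most 20% mitochondrial UMIs and 60% or more of the barcode's UMIs in the library. UMIs were summed per tumour and gate and fitted with edgeR 4.0.16 (filterByExpr, TMM, quasi-likelihood test, tumour as a block), with Benjamini-Hochberg adjustment over all genes tested and a threshold of 0.05. The tumour pairs its gates, which share an animal and a library. Deviations of 1 tumour in both gates correlated by 0.064, 0.019 and 0.224. The ductal and acinar comparison used sums of 50 or more cells. The msln gate and the cycling states had too few such sums, so their fits used 20 or more cells, a departure from the plan, where 20 cells was an alternative. SE is the log2 difference over the root of F, and the 95% intervals take the normal quantile. With 2 to 4 residual degrees of freedom the spread is borrowed across genes. CPM intervals are exact Poisson and intervals of shares exact Clopper-Pearson; both, and the floor of 3 counts, cover counting error only. Scrublet called 4, 2 and 0 cells of tumours 1, 2 and 3, too few to have worked, so no cell was removed as a doublet. An alternative left out the highest scores (57, 13 and 94 cells), and cells in 2 gates were kept apart.

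On simulated counts with 200 changed genes, the ductal and acinar fit recovered 55 of 100 genes changed 2-fold and 90 of 100 changed 4-fold with 4 false calls. For msln over ductal cells it recovered 10 and 42, and for cycling ductal cells 34 and 70.

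Named genes were the 5 members, the gate genes, up to 4 genes per list that passed with the largest difference in ductal over acinar cells, other keratins at 20 CPM or more in some gate, and the 3 genes most correlated with each member. Cpa1, Malat1, Jun, Lmnb2, Eppk1, Dst and Pkp2 fall outside this rule and were named after their values were seen. Members and lists were chosen with earlier results of these data known. Alternatives tried were DESeq2 1.42.0, other size factors, no filter on low counts, no block, each tumour left out, other gates and cell limits, thinning, and the cells rich in ribosomal RNA locus transcripts left out, the last added after the data were seen. Python 3.11.15 and R 4.3.3 were used.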

Additional observations from a re-analysis of the deposited data

Results flagged for a closer look

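Keratin UMIs were also present in barcodes that no comparison used: those which passed the other limits but had under 60% of their UMIs in the library. The 5 keratins summed to 3935 CPM in 122 such barcodes of library 1, 4031 CPM in 258 of library 2 and 4685 CPM in 28 of library 3, above the 12.4, 5.03 and 48.1 CPM that 3 counts of each total allow. These sums lie between those of ductal-gated cells (8203 to 8900 CPM) and acinar-gated cells (2508 to 2664 CPM).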

How the results depend on the processing

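All 5 differences of ductal over acinar cells and all 5 of msln over acinar cells kept their direction and passed under every alternative that could be fitted (log2 1.12 to 4.82 in ductal over acinar cells). The msln comparisons could not be fitted with the stricter gate or the 10% mitochondrial limit, which left no sums of 20 cells.

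Counts of genes passing moved more. For ductal over acinar cells (2632) DESeq2 gave 1111 and thinning 1324, and leaving out a tumour 1154 to 2823. For msln over ductal cells (379) these were 225, 106 and 117 to 422, and for msln over acinar cells (1167) 767, 344 and 421 to 1274. For cycling in the ductal gate (290) DESeq2 gave 146, the stricter gate 102, the largest gate 189 and thinning 89, with 83 to 219 without a tumour. For cycling in the acinar gate (203) DESeq2 gave 60, no home filter 332, thinning 41 and 50 cells per sum 434, with 25 to 170. For the interaction (43) no filter gave 25, DESeq2 7, the looser gate 21, the stricter 22, the largest 24 and thinning 19, with 4 to 33.

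Without the replicate block, which sets aside that the gates come from the same tumour, the counts were 1666, 236, 929, 65, 10 and 0 in the same order (255 interaction genes at an unadjusted p under 0.05). All 1666 were among the 2632. Without the block msln over ductal Krt19 was 0.035, cycling ductal Krt18 -0.49 and Krt19 -0.71, and cycling acinar Krt7 -0.69, Krt8 -0.60, Krt18 -0.68 and Krt19 -0.84. None of these passed.

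Signs changed for msln over ductal Krt19 (0.018 with RLE factors, 0.018 with DESeq2, 0.11 with the looser gate, 0.15 thinned, -0.12 to 0.0033 without a tumour) and Krt20 (-0.015 with no home filter, -0.80 to 1.40), cycling ductal Krt7 (0.053, stricter gate) and the interaction of Krt19 (-0.051 thinned, -0.017 to 0.25), Krt7 (-0.057 to 0.68) and Krt20 (-1.02 to 1.26).

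Calls were lost for cycling acinar Krt7 (-0.65 no filter, -0.69 DESeq2, -0.54 largest gate, -0.48 thinned, -0.91 to -0.29 without a tumour) and Krt8 (-0.55 no filter, -0.62 stricter gate, -0.47 thinned, -0.61 to -0.58). Leaving out a tumour gave -0.82 to -0.51 for Krt18 and -1.01 to -0.64 for Krt19. They were lost for cycling ductal Krt18 (-0.49 DESeq2, -0.40 no home filter, -0.41 stricter gate, -0.51 largest gate, -0.40 thinned, -0.55 to -0.46 without a tumour) and Krt19 (-0.53, stricter gate), and for msln over ductal Krt18 (0.99 to 1.18). Cycling ductal Krt8 came to pass at -0.39 with DESeq2, -0.42 with the looser gate, -0.43 without the highest doublet scores, -0.42 thinned, -0.51 with the 10% limit and -0.44 without cells rich in ribosomal RNA locus transcripts.

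Mean levels moved by more than 1 SD as follows. Ductal-gated Krt8 was 3234 CPM without the ribosomal RNA-rich cells, 3308 with the stricter gate, 2914 with the largest, 3225 thinned, 3252 as a mean over cells and 3200 under 5000 UMIs. Krt18 was 1346 without the ribosomal RNA-rich cells, 1375 thinned, 1347 with the 10% limit, 1404 over cells and 1420 under 5000 UMIs, and Krt19 4093 thinned, 4107 over cells and 4041 under 5000 UMIs. Acinar-gated Krt8 was 886 without ribosomal RNA-rich cells, 935 stricter, 976 largest, 850 with no home filter, 885 without doublet scores and 1005 with the locus transcripts out of the total. Krt18 was 564 stricter, 593 thinned, 581 with the 10% limit, 604 over cells, 611 under 5000 UMIs and 593 with the locus transcripts out. Krt19 was 825 without ribosomal RNA-rich cells, 885 looser, 1017 stricter, 1043 largest, 1063 thinned, 998 with the 10% limit, 869 with no home filter, 921 without doublet scores, 1022 over cells, 1050 under 5000 UMIs and 1057 with the locus transcripts out. The causes were not tested. Settings on ribosomal RNA locus transcripts and depth were chosen after seeing the data. Krt20 rests on few UMIs in every gate but the ductal.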
